A study of Oryza sativa Indica Group with 27 samples.

Results

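The miRNAs described here are the rows of a small RNA table whose first name carries a number of at least 1000 after "miR". They are 176 of the 292 rows, and the other 116 rows carry numbers of at most 827. The members span 124 family numbers, the lowest being miR1317 and the highest miR5542. Because some mature forms are identical between loci, 24 of the member rows hold several names. The rule uses the name of a row and none of its values, although it was written with earlier results of these data known.

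Plant miRNAs are cut from the hairpin of a longer transcript by a Dicer-like enzyme, and 1 strand of the cut duplex is loaded into an Argonaute protein that it guides to matching RNA. In miRBase, the registry of these sequences, families are numbered roughly in order of discovery. The low numbers hold many families shared by most land plants, whereas families numbered 1000 or higher in rice were mostly found by deep sequencing and are known mostly from rice or other grasses. Such young families are usually made at low levels. Some of them yield a long class of miRNA in rice, which is cut by another Dicer-like enzyme and can guide DNA methylation instead of cleavage of a target RNA.

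The libraries used were made from wild-type (WT) Nipponbare rice, sampled as whole plants at the three-leaf stage. Plants grew in Yoshida's solution, and dehydration was applied by taking the solution away, with sampling at 0, 1, and 6 hours after treatment (HAT). The labels list no untreated library at 1 or 6 HAT, so that dehydration cannot be told apart from elapsed time or time of day. Each time point had 1 small RNA library, so that no difference below has a replicate check, and intervals cover counting error only. Whole plants mix shoot and root, and fewer cells of a type cannot be told apart from less RNA per cell. The labels give the organism as the Indica Group, whereas Nipponbare is a japonica cultivar. The table also has columns for Nipponbare overexpressing an AP2 gene (OsERF71 in the paper) and for the cultivar Vandana. In 292 of 292 rows, each of these columns repeated the reads that WT had at that time point, and they were not used.

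Values were deposited as RPM (reads scaled to a common total), and whole reads were recovered from the step of each column. The listed reads summed to 203276, 213459, and 129838 at 0, 1, and 6 HAT, and 1 read was worth 4.92, 4.68, and 7.70 RPM. The 6 HAT library thus had the fewest listed miRNA reads, which need not follow its sequencing depth. A count of 0 allows up to 3 reads, which is 14.8, 14.1, and 23.1 RPM at 0, 1, and 6 HAT. RPM is a share of listed miRNA reads, so that a member's RPM also depends on how many reads the other miRNAs took.

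The members made up a small part of the listed miRNA reads, and 1 member held most of that part. They took 13.2% of listed reads at 0 HAT (exact 95% interval 13.1 to 13.4), 11.8% at 1 HAT (11.7 to 11.99), and 14.4% at 6 HAT (14.2 to 14.6). Of these reads, miR1425-5p held 71.8, 71.4, and 61.8% at 0, 1, and 6 HAT. The 12 most read members together held 92.3, 92.2, and 90.3% of member reads at these times.

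Leaving miR1425-5p out, the remaining members stood higher at 6 HAT than at either earlier time. They took 3.73% of listed reads at 0 HAT (3.65 to 3.81), 3.39% at 1 HAT (3.31 to 3.47), and 5.49% at 6 HAT (5.37 to 5.62). The ratio of the share at 6 HAT to that at 1 HAT was 1.62 (1.57 to 1.67), and that to the share at 0 HAT was 1.47 (1.43 to 1.52). This pooled share rested mostly on few rows, since the 11 most read of them took 2.71, 2.46, and 4.09% of listed reads. Among those 11, the largest gains in RPM between 1 and 6 HAT were in miR1876, miR1317-3p, and miR1862d. Both miR3979-5p and miR1432 were lower at 6 HAT than at 1 HAT. For miR1425-5p alone the ratio of 6 HAT to 1 HAT was 1.05 (1.02 to 1.07).

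**Figure D1:**
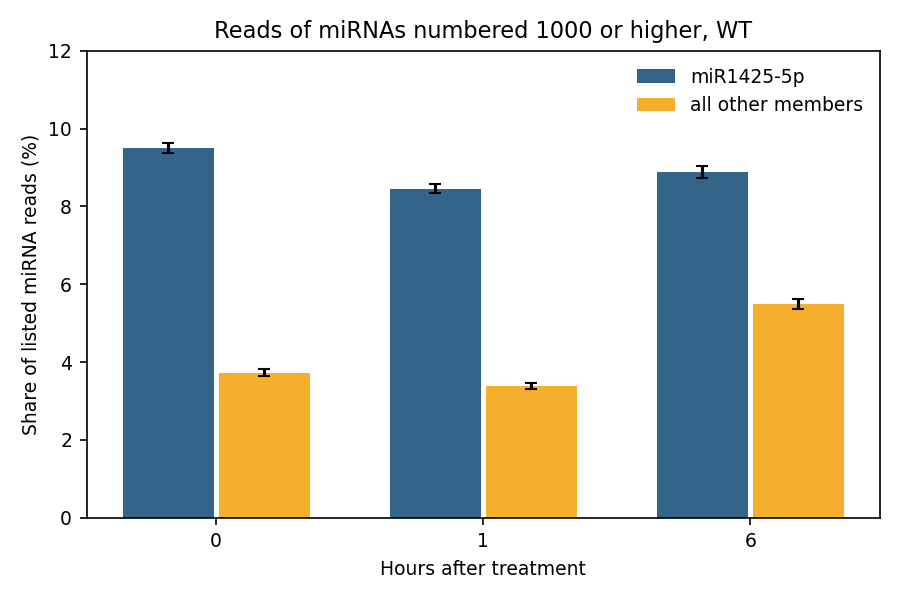
Share of listed miRNA reads (%, vertical axis from 0) in the WT library of each time point, for miR1425-5p and for all other miRNAs numbered 1000 or higher. Bars are single libraries and error bars are exact 95% counting intervals. miR1425-5p stayed between 8.46 and 9.50%, and the other members reached 5.49% at 6 HAT.

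Most members were barely read. In all 3 libraries 95 members were read, 146 were read in at least 1, and 30 had 0 reads throughout, against 13 of the 116 low-numbered rows. Members with at least 1 read numbered 119, 122, and 117 at 0, 1, and 6 HAT. Only 55 members had at least 10 reads in any library, against 74 low-numbered rows, and 41 had at least 10 in every library. The 121 members below that minimum everywhere held 530 of the 70845 member reads. Summed over the libraries, 31 members had at least 100 reads and 6 had at least 1000. Of the 124 family numbers, 102 were read.

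By number, the reads were concentrated in the lowest numbers, mostly through 1 row. The 79 rows numbered in the 1000s held 64166 reads, 48896 of them from miR1425-5p. In this range 32 rows had at least 10 reads in a library. The 44 rows in the 2000s held 4019 reads, with 14 such rows. The 7 rows in the 3000s held 1520 reads, with 2 such rows, both from the miR3979 hairpin. The 46 rows in the 5000s held 1140 reads, with 7 such rows.

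Among members with a known role in rice, miR1425-5p, which targets pentatricopeptide repeat genes related to fertility restorers, was read far more than the other families. It had 19314, 18057, and 11525 reads at 0, 1, and 6 HAT, or 95014, 84594, and 88767 RPM. The level was lower at 1 HAT and moved little after that, with a log2 change of -0.17 (95% counting interval -0.20 to -0.14) between 0 and 1 HAT and 0.07 (0.04 to 0.10) between 1 and 6 HAT. The opposite arm, miR1425-3p, had 12, 9, and 7 reads.

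The level of miR1432, known to target EF-hand calcium-binding protein genes, was 777, 937, and 678 RPM at 0, 1, and 6 HAT, from 158, 200, and 88 reads. Its level at 6 HAT was below that at 1 HAT by more than counting error (log2 change -0.47, -0.85 to -0.10). Between 0 and 6 HAT the interval of its change crossed 0 (-0.20, -0.59 to 0.19). A single read per library was found for miR1848, which targets genes of sterol and wax synthesis, so no change can be given for it.

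The miR2118 and miR2275 families trigger phased small RNAs in grass anthers, a tissue that plants at the three-leaf stage do not have. Their 8 rows summed to 30, 30, and 19 reads, or 148, 141, and 146 RPM, at 0, 1, and 6 HAT. The row with the most of these reads was miR2118o, with 19, 14, and 8 reads. The rows of miR2118b and n (4, 8, and 5 reads), miR2118e and r (0, 7, and 1), miR2118c and q (1, 0, and 1), miR2118a (1, 0, and 0), and miR2275d (5, 1, and 4) were below 10 reads in each library. Both miR2275c and the row of miR2118f, j, and m had 0 reads.

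Families that include long miRNAs (miR1850, miR1862, miR1863, miR1868, miR1870, miR1873, and miR1876) were read more and stood higher at 6 HAT. Their 14 rows summed to 11020, 10124, and 19841 RPM at 0, 1, and 6 HAT. Between 1 and 6 HAT all 7 rows with enough reads were higher at 6 HAT, against 55.6% of all miRNAs that passed the minimum of reads. Of the 7, 4 rose at least 2-fold, against 12.7% of all miRNAs, and their median log2 change was 1.04, against 0.09. The members as a whole, which include these rows, moved the same way in this period. Of them 69.8% were higher and 24.5% rose at least 2-fold, with a median of 0.51. Between 0 and 6 HAT 6 of 8 rows were higher, against 54.5% of all miRNAs, and 3 rose at least 2-fold, against 14.6%, with a median of 0.83, against 0.06. Over the members as a whole these values were 63.5%, 17.3%, and 0.40. Between 0 and 1 HAT 2 of 8 rows were higher, against 44.1% of all miRNAs, 0 rose and 1 fell at least 2-fold, against 5.51% and 3.94%, and the median was -0.18, against -0.07. Mature lengths were not used here, and the grouping is by family name only.

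Most of that sum was miR1876, with 1239, 1242, and 1549 reads, or 6095, 5819, and 11931 RPM, at 0, 1, and 6 HAT. The first 2 libraries agreed within counting error (log2 change -0.07, -0.18 to 0.05), and the 6 HAT library was 2-fold above that at 1 HAT (1.04, 0.93 to 1.14). Scaling by the median ratio of miRNAs put this change at 0.98, just under 2-fold.

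The miR1862 family had 3 rows with different profiles. The level of miR1862d was 3754, 3223, and 6092 RPM at 0, 1, and 6 HAT, a log2 change of 0.92 (0.77 to 1.07) between 1 and 6 HAT. The low-read miR1862e had 28, 25, and 47 reads and rose between 1 and 6 HAT by a log2 change of 1.63 (0.90 to 2.39). By contrast, the row shared by miR1862a, b, and c had 121, 109, and 75 reads, and its log2 change of 0.18 between 1 and 6 HAT had an interval across 0 (-0.27 to 0.62).

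The other long-class families had fewer reads. Rises of at least 2-fold between 1 and 6 HAT were found for miR1863 (22, 21, and 35 reads, log2 change 1.45, 0.63 to 2.31) and miR1873 (23, 36, and 45 reads, 1.04, 0.37 to 1.71). In miR1850.1 (18, 20, and 17 reads) the change of 0.48 had an interval across 0 (-0.54 to 1.49). The 18 reads of miR1870 at 0 HAT were followed by 9 and 7, a fall of 1.07 on the log2 scale between 0 and 1 HAT whose interval also crossed 0 (-2.41 to 0.16). Fewer than 10 reads in each library were found for miR1870-3p (6, 1, and 5), miR1863b (1, 4, and 3), miR1863c (1, 2, and 0), miR1868 (0, 3, and 2), and miR1850.3 (0, 1, and 0), and miR1863b.2 had 0.

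The remaining members among the 12 most read have no role stated here and fell into 3 profiles. Higher at 6 HAT than at both earlier times were miR1317-3p, miR1867, miR2873, miR5150-3p, and the row of miR2871a-3p and miR2871b. The level of miR1317-3p was 5830, 4554, and 9089 RPM at 0, 1, and 6 HAT, a log2 change of 1.00 (0.87 to 1.12) that lay just under 2-fold between 1 and 6 HAT. For miR1867 the levels were 2169, 2286, and 3250 RPM, for miR2873 1146, 1040, and 1833 RPM, and for miR5150-3p 694, 628, and 1271 RPM. The row of miR2871a-3p and miR2871b was already higher at 1 HAT, with 1741, 2385, and 2950 RPM at 0, 1, and 6 HAT.

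A dip at 1 HAT was seen for miR2877, with 1673, 1082, and 1610 RPM at 0, 1, and 6 HAT and a log2 change of -0.63 (-0.88 to -0.38) between 0 and 1 HAT. Its level at 6 HAT could not be told apart from that at 0 HAT by counting error (-0.06, -0.31 to 0.20). Both arms of miR3979 ended lower than they began. The 5p arm had 1992, 1752, and 1255 RPM, a log2 change of -0.67 (-0.94 to -0.40) between 0 and 6 HAT, and the 3p arm had 1235, 899.5, and 978 RPM, a change of -0.34 (-0.66 to -0.02).

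**Figure D2:**
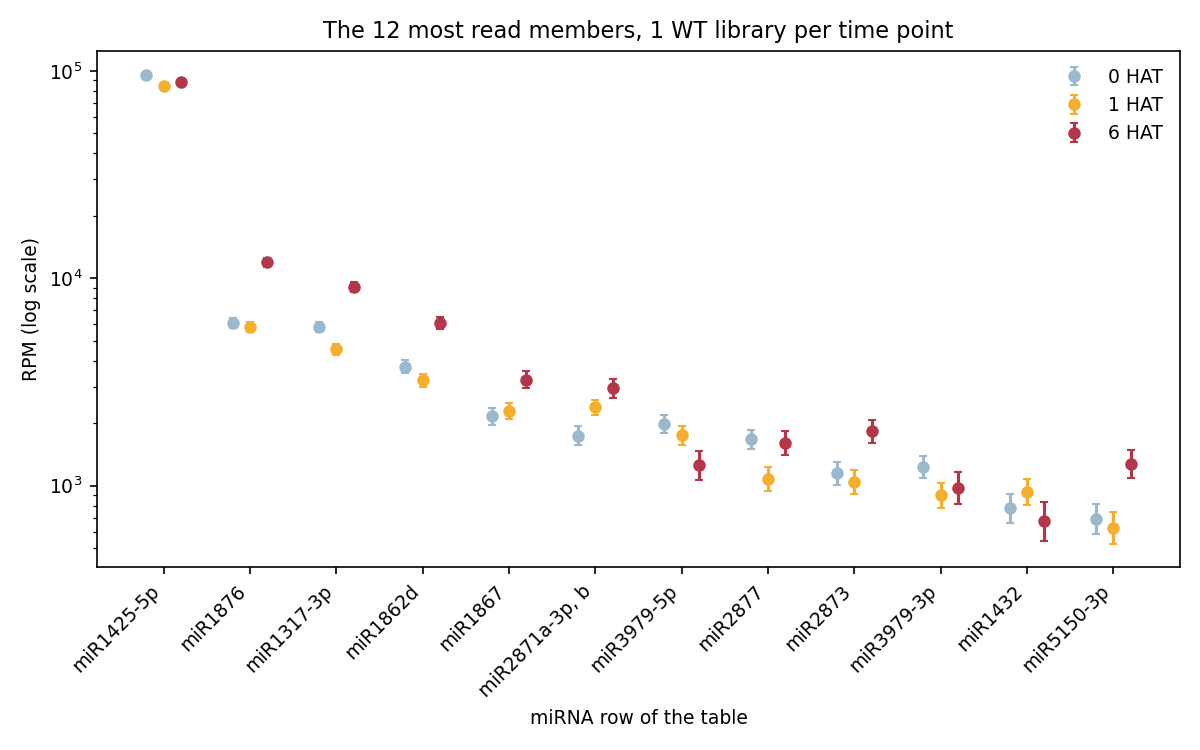
Level in RPM (vertical axis, log scale) of the 12 most read members (horizontal axis, by summed reads) in the WT libraries at 0, 1, and 6 HAT. Points are single libraries and bars are exact 95% Poisson intervals. miR1876 stands at 11931 RPM at 6 HAT against 5819 at 1 HAT, whereas both miR3979 arms and miR1432 are at or below their 0 HAT level at 6 HAT.

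Changes were counted for miRNAs with at least 10 reads in at least 1 of the 2 libraries compared, and rose or fell means a change of at least 2-fold in RPM. Between 0 and 1 HAT, few members moved. Of 54 members, 4 rose (7.41%) and 3 fell (5.56%). Over all miRNAs, 7 of 127 rose (5.51%) and 5 of 127 fell (3.94%). The members' median log2 change was -0.10, against -0.07 over all miRNAs. In direction, 33 of the 54 were lower, near the 71 of 127 over all miRNAs. All 4 that rose had fewer than 10 reads at 0 HAT: miR1427 (4, 18, and 7 reads at 0, 1, and 6 HAT), miR1431 (8, 24, and 23), miR2863c (4, 11, and 5), and the row of miR5157a-5p and miR5157b-5p (4, 11, and 17). The 3 that fell were miR1428e-3p (27, 12, and 27 reads), the row of miR1428e-5p, f-5p, and g-5p (20, 9, and 13), and miR1870. Two-sided Fisher's exact test on reads, which compares these libraries and not the conditions, was then added. With it 2 members rose and 0 fell, against 3.15% rising and 0.787% falling over all miRNAs. These 2, miR1427 and miR1431, passed the minimum only through the 1 HAT library in which they were high. The test therefore gives them no independent support.

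Between 1 and 6 HAT the members moved mostly one way. Of 53 members, 13 rose and 0 fell by the 2-fold rule, whereas over all miRNAs 12.7% rose and 1.59% fell. Among the 73 low-numbered rows that passed, 3 rose and 2 fell. The members' median log2 change was 0.51, against -0.06 for the low-numbered rows and 0.09 over all miRNAs. In direction, 37 members were higher and 16 lower at 6 HAT, and for the low-numbered rows the counts were 33 and 40. The low-numbered rows nearest in number that passed, miR810 to miR827, were mostly higher too. Their log2 changes were 2.32 (miR812n-5p), 0.76 (miR812g), 0.60 (miR819h-3p), 0.59 (miR819k-3p), 0.57 (miR827a), 0.48 (miR819a-3p), and 0.13 (miR810b.1). Lower were miR820a (-0.10) and miR812f (-0.42). Among these rows only the intervals of miR812n-5p and miR812g lay above 0. With Fisher's exact test added, 11 members rose and 0 fell, against 11.1% and 0.794% over all miRNAs. The difference between members and low-numbered rows was not tested. The smaller total of listed reads at 6 HAT moves with this result and its part in it was not tested.

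By number, 9 of 30 rows in the 1000s, 1 of 14 in the 2000s, 0 of 2 in the 3000s, and 3 of 7 in the 5000s rose between 1 and 6 HAT, with medians of 0.65, 0.33, -0.18, and 0.32. The 13 that rose ranged widely in reads. Those with the most reads were miR1876, miR5150-3p (141, 134, and 165 reads at 0, 1, and 6 HAT), and miR1878 (133, 76, and 112 reads). In miR1878 the log2 change of 1.28 (0.84 to 1.72) came after a level at 1 HAT below that at 0 HAT (-0.88, -1.30 to -0.46).

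The highest log2 change between 1 and 6 HAT among the members was that of miR5150-5p, the less read arm of its hairpin. It had 20, 20, and 56 reads, or 98.4, 93.7, and 431 RPM, at 0, 1, and 6 HAT, and a change of 2.20 (1.44 to 3.02). The libraries at 0 and 1 HAT were alike, and only the 6 HAT library stood apart. Next came miR1428e-3p, with 1.89 (0.86 to 3.003), although its 27 reads at 6 HAT equalled those at 0 HAT and the dip lay at 1 HAT. The row of miR1428e-5p, f-5p, and g-5p had the same dip, and its change of 1.25 between 1 and 6 HAT had an interval across 0 (-0.09 to 2.65).

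The rows of miR1317-5p.2 and of miR1882a to miR1882h held identical values, 32, 35, and 64 reads at 0, 1, and 6 HAT, with a log2 change of 1.59 (0.97 to 2.23) between 1 and 6 HAT. They may be the same reads listed under 2 names and are best counted once, which leaves 12 members that rose. With fewer reads, miR2125 (15, 10, and 15 reads) rose by 1.30 (0.05 to 2.62) between 1 and 6 HAT and the row of miR5157a-5p and b-5p by 1.35 (0.17 to 2.59).

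**Figure D3:**
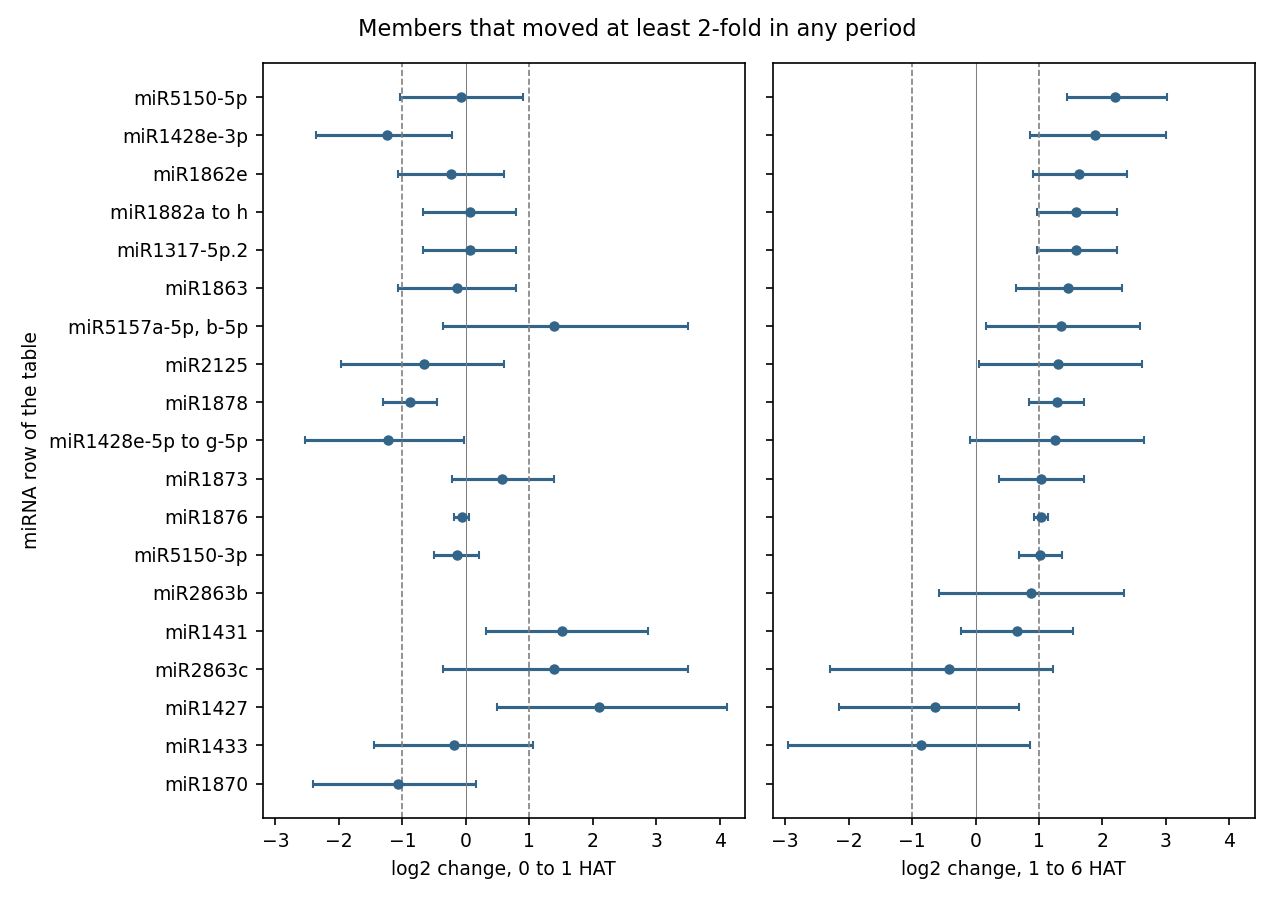
Log2 change in RPM between 0 and 1 HAT (left) and between 1 and 6 HAT (right) for the members that moved at least 2-fold in any period, 1 row of the table per line. Points are ratios of single libraries, bars are exact 95% counting intervals, and dashed lines mark 2-fold. In the right panel 13 members lie at or beyond the upper dashed line and 0 beyond the lower one, and a line without a point had fewer than 10 reads in both libraries.

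Between 0 and 6 HAT, a comparison that shares its 6 HAT library with the comparison just described, 9 of 52 members rose and 1 fell, while over all miRNAs 14.6% rose and 3.25% fell. The share of members that rose, 17.3%, was thus near this background, and the low-numbered rows had 9 of 71 rising. The members' median log2 change was 0.40, against 0.06 over all miRNAs. In direction, 33 members were higher and 19 lower, against 67 and 56 over all miRNAs. With Fisher's exact test added, 8 members rose and 0 fell, against 12.2% and 1.63% over all miRNAs. Among these 8, miR1431 and the row of miR5157a-5p and b-5p passed the minimum only through the 6 HAT library in which they were high. For those rows the test gives no independent support.

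The largest rise between 0 and 6 HAT among the members, in the row of miR5157a-5p and b-5p (log2 change 2.73, 1.12 to 4.76), rested on 4 reads at 0 HAT. A rise of 2.17 (0.96 to 3.54) was found for miR1431, which was already higher at 1 HAT, and one of 2.13 (1.37 to 2.95) for miR5150-5p. The rise of miR2863b (5, 9, and 10 reads at 0, 1, and 6 HAT) by 1.65 had an interval across 0 (-0.04 to 3.55). The member that fell, miR1433, had 13, 12, and 4 reads, and its interval likewise crossed 0 (log2 change -1.05, -3.13 to 0.64).

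**Figure D4:**
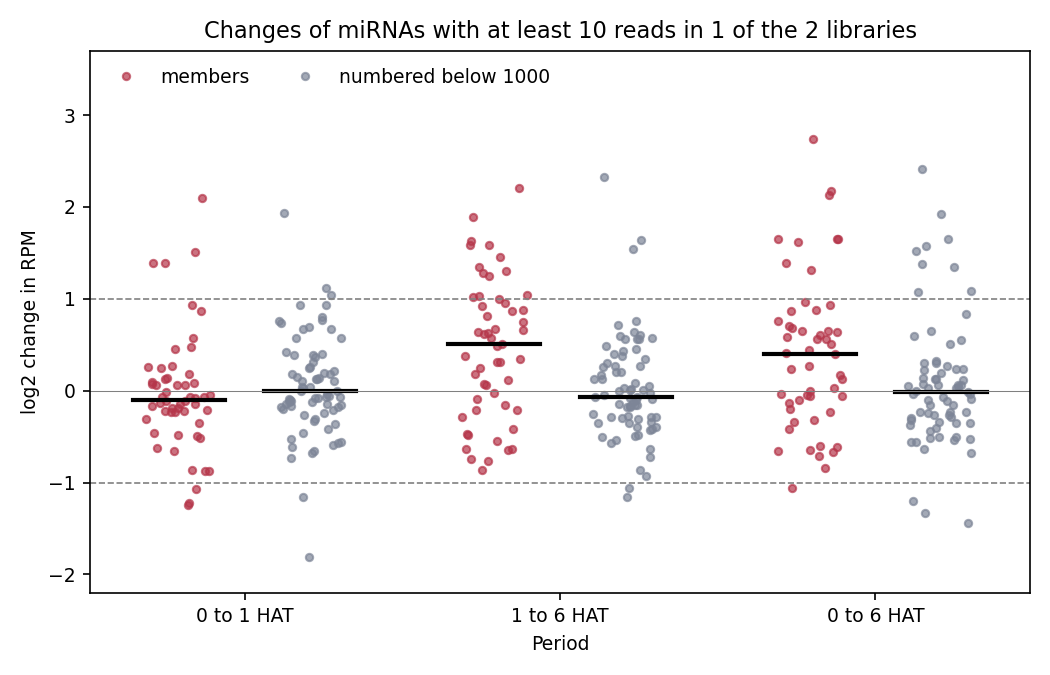
Log2 change in RPM (vertical axis) of members and of miRNAs numbered below 1000 in each period, for rows with at least 10 reads in 1 of the 2 libraries. Each point is a row of the table, short black lines are medians, and dashed lines mark 2-fold. Between 1 and 6 HAT the medians are 0.51 for members and -0.06 for low-numbered rows.

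The time of the highest level differed in the same direction. Of the 41 members with at least 10 reads in every library, 26 had their highest RPM at 6 HAT, 5 at 1 HAT, and 10 at 0 HAT. The lowest RPM was at 1 HAT in 23 of them. Among the 61 low-numbered rows with that depth, 18 had their highest RPM at 6 HAT, 18 at 1 HAT, and 25 at 0 HAT. In 14 of these 61 rows the lowest RPM was at 1 HAT. These counts describe the same 3 libraries as the changes above and add no replicate.

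Both arms of the hairpin, 5p and 3p, were listed for 21 member hairpins, and 12 of these had at least 30 reads. The 5p arm had more reads in 6 of the 12 and the 3p arm in the other 6. The arms of miR1425 were the most unequal, with 99.9% of reads from the 5p arm at each time. In 3 of the 12 hairpins the exact 95% intervals of the 5p share at 0 and 6 HAT did not overlap.

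In 2 of these hairpins the 5p arm was the less read one and gained share. For miR5150 the 5p share was 12.4% (7.76 to 18.5), 13.0% (8.12 to 19.3), and 25.3% (19.7 to 31.6) at 0, 1, and 6 HAT, and both arms had a higher RPM at 6 HAT. For miR1317 it was 2.63% (1.81 to 3.69), 3.67% (2.59 to 5.02), and 5.22% (4.05 to 6.61), with the limit that reads of its 5p arm may belong to miR1882. In miR2871a the 5p share went the other way, with 14.3% (11.1 to 18.04), 7.96% (5.84 to 10.5), and 5.90% (3.81 to 8.65). Here the 5p arm had 59, 44, and 24 reads, and the 3p row, which miR2871b shares, had 354, 509, and 383. The arms of miR3979, with 61.7, 66.1, and 56.2% from 5p, had overlapping intervals at 0 and 6 HAT. A share within a hairpin is unchanged by scaling to a common total. The part of the smaller total of listed reads at 6 HAT in these shares was not tested.

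**Figure D5:**
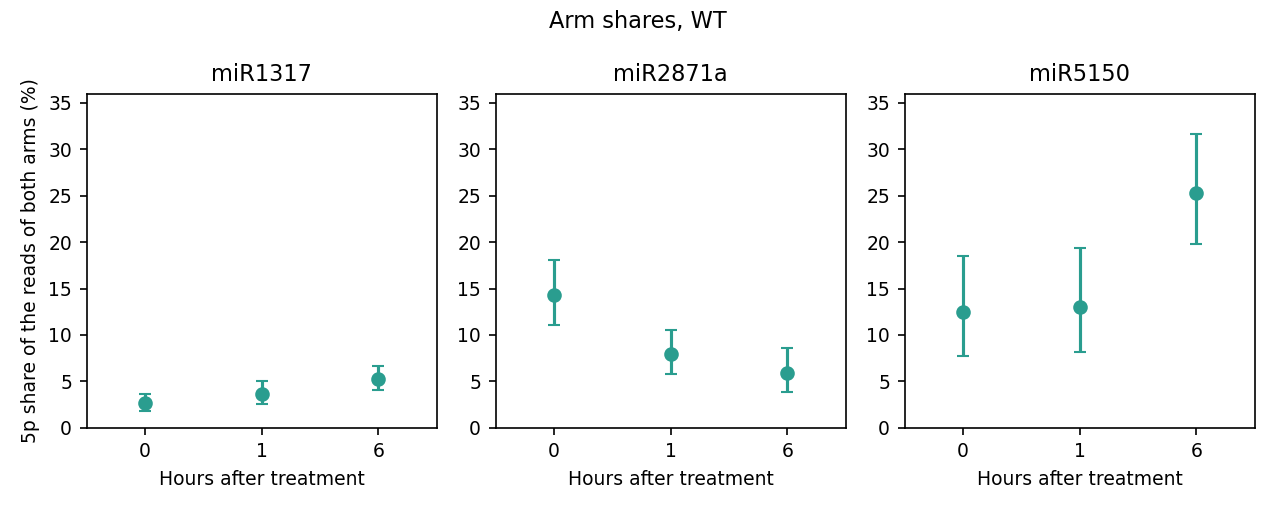
Share of reads from the 5p arm among reads of both arms (%, vertical axis) at 0, 1, and 6 HAT for the 3 member hairpins whose intervals at 0 and 6 HAT do not overlap. Points are single WT libraries and bars are exact 95% binomial intervals. The 5p share at 6 HAT is 25.3% in miR5150 and 5.22% in miR1317, above that at 0 HAT, and 5.90% in miR2871a, below it.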

How the data were processed

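The authors quantified small RNA reads with miRanalyzer and deposited RPM values for 292 miRNAs, with the version and miRBase release not given in the sources used here. The submitters' processing notes name IRGSP-1.0, CASAVA 1.8.2, TopHat2, Cufflinks and Bowtie. Each column was divided by its step, which gave whole reads for all values (tolerance 0.001). Column totals were 203275, 213455 and 129834 reads at 0, 1 and 6 HAT. The gene and lincRNA tables were not used.

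A change was called at 2-fold in RPM with at least 10 reads in 1 of the 2 libraries. Intervals of ratios were exact conditional binomial, those of shares Clopper-Pearson and those of levels Poisson, all at 95%. Fisher's test was adjusted by the Benjamini-Hochberg procedure over all miRNAs passing the minimum, with an adjusted p threshold of 0.05. Medians used rows with reads in both libraries. Named members were the 12 most read, the 19 called in any period, families with a known role or long members, and other members of the families of the 12 and the 19 with at least 10 reads. Members, lists and tests were chosen with earlier results of these data known. Alternatives were other minimums, folds, scalings, a pseudocount of 1 RPM, repeated rows counted once, and, chosen after seeing the data, 10 reads in both libraries. Scripts were tested on simulated data and used Python 3.11.15, numpy 2.4.6, pandas 2.3.3, scipy 1.17.1 and matplotlib 3.10.9.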

Additional observations from a re-analysis of the deposited data

How the results depend on the processing

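Most counts of moved members depended on the minimum of reads and on the fold. Between 0 and 1 HAT, the 4 members up became 1 with 20 reads, 2 with a mean of 10 reads, 10 with no minimum, 1 at 4-fold, 2 with Fisher's exact test, and 0 with 10 reads in both libraries. The 3 down became 16 with no minimum, 8 at 1.5-fold, 0 at 4-fold, 0 with Fisher's exact test, and 1 with 10 reads in both libraries. Between 1 and 6 HAT, the 13 up became 32 with no minimum, 25 at 1.5-fold, and 1 at 4-fold, and stayed between 10 and 13 under the other alternatives. The 0 down became 5 with no minimum and 6 at 1.5-fold. Between 0 and 6 HAT, the 9 up became 26, 20, and 3 with no minimum, at 1.5-fold, and at 4-fold, and 6 with 10 reads in both libraries. The 1 down became 4 with no minimum, 8 at 1.5-fold, and 0 with 20 reads, a mean of 10 reads, 4-fold, Fisher's exact test, or 10 reads in both libraries. The settings differ by construction in how many rows they admit, and no other cause was tested.

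The median log2 change between 1 and 6 HAT, 0.51, was 0.62 with 20 reads, 0.62 with no minimum, 0.63 with 10 reads in both libraries, and 0.45 with median-ratio scaling. That between 0 and 6 HAT, 0.40, was 0.51 with 20 reads and 0.64 with no minimum. With the most read member, miR1425-5p, left out of members and listed reads, the members' share of listed reads was 4.12, 3.704, and 6.03% at 0, 1, and 6 HAT. It was 20.8, 16.5, and 19.1% when the most read miRNA that is no member, the row of miR166a, was left out of the listed reads. That row had 73731, 60204, and 32368 reads. Without it the members' share was lower at 6 HAT than at 0 HAT, whereas with it the share was higher. Median-ratio scaling put miR1876, miR5150-3p, and miR1873 at log2 changes of 0.98, 0.96, and 0.98 between 1 and 6 HAT, just under 2-fold. Of 291 values of named members under other scalings and a pseudocount, 289 stayed within the counting interval and 1 changed sign, the row of miR1428e-5p, f-5p, and g-5p between 0 and 6 HAT, with -0.03 under median-ratio scaling against 0.03.

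With 1 library per time point, variation between plants cannot be measured, and no paired analysis was possible because the time points share no replicates. Read totals limit most members: 121 of 176 never reached 10 reads. Dicer-like and Argonaute transcripts and their alternatives were not run, and neither was a grouping by mature length or first base.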
